A study of Caenorhabditis elegans with 2 samples.

Results

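Of the 3935 peaks of MXL-3 binding called across both replicates, 689 had their summit inside a protein-coding gene, in no exon of any protein-coding transcript, and outside the promoter window of every gene. That window took in 1000 bp before and 200 bp after each start of a protein-coding transcript in the Ensembl annotation of WBcel235, the ce11 build used by the peak lists. These intronic peaks away from promoters made up 17.5% of the list (95% exact interval 16.3 to 18.7). Within this list members were chosen by position alone, and neither their strength nor their sequence entered that choice. The list itself held only peaks that had passed a threshold of agreement between the replicates. A further 350 summits lay in introns but inside a promoter window and were left out.

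The study was a ChIP-seq experiment with 2 biological replicates of 1 group, whole Caenorhabditis elegans at the L4 larval stage. In both replicates the strain was OP745, which carries the allele tm4063 of unc-119 and an inserted transgene array, wgIs745. The array supplies mxl-3::TY1::EGFP::3xFLAG, so that MXL-3 is made with its tags, together with a working copy, unc-119(+). Animals of both sexes were pooled 48 h after starved L1 larvae obtained by bleaching, and the tagged protein was precipitated with an antibody to GFP. There was no second genotype, stage or treatment, and whole animals pool all tissues. Read counts were not analysed here, and the depth of the libraries is unknown.

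MXL-3 is a basic helix-loop-helix leucine zipper protein of the Max-like family. Proteins of this kind bind DNA as dimers at E-boxes, and the Max type prefers the palindrome CACGTG. In C. elegans MXL-3 is known for restraining lysosomal lipase and autophagy genes in fed animals, where HLH-30, the worm relative of TFEB, acts in the opposite direction. Introns of worm genes can hold enhancers, alternative starts and whole genes for small RNAs such as tRNAs and snoRNAs.

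The sequences under 6 of the strongest intronic summits that held CACGTG are shown first because they display the E-box in its surroundings. Each runs 40 bases to each side of the summit on the plus strand of WBcel235. Capitals mark CACGTG, which reads the same on both strands.
D2023.3 (V:11802567-11802647): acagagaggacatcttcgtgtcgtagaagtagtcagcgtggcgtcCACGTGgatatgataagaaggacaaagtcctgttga
nhr-19 (II:9603616-9603696): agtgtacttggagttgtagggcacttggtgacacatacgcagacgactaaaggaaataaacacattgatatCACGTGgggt
H18N23.2 (X:17633286-17633366): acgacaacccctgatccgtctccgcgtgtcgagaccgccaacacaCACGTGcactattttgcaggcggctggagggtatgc
Y43F8B.2 (V:19529376-19529456): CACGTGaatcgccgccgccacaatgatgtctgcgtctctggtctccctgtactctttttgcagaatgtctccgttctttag
pdhk-2 (III:8739299-8739379): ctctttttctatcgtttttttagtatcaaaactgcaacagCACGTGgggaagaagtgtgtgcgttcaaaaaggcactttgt
Y67D8A.2 (IV:3232704-3232784): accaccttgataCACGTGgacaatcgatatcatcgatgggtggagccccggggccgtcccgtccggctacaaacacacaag
In these the distance of the E-box from the summit varied, and in Y43F8B.2 it stood at the very edge of the printed window. Among all intronic peaks there were 143 CACGTG sites within 100 bp of a summit, at a median of 34.5 bp from it, and 91 of them lay within 50 bp. The base before and after the hexamer also varied: the commonest form with its neighbours was ACACGTGG, found 28 times with both strands merged.

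Strong intronic peaks also occurred over sequence with no CACGTG within 100 bp, and 4 of these are shown for contrast. Capitals mark the E-box variant CACATG and the GA repeat GAGAGA, on either strand.
nhr-19 (II:9601279-9601359): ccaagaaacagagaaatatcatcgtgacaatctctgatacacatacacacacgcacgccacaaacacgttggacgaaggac
lin-42 (II:1246981-1247061): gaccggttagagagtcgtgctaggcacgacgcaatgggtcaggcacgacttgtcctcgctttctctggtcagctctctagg
gcn-1 (III:2172054-2172134): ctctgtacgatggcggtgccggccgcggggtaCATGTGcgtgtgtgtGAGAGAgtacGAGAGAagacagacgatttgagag
kin-20 (X:15275498-15275578): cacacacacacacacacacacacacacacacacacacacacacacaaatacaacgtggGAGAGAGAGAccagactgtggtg
The gcn-1 window held the variant E-box CACATG, read on the minus strand, and 2 copies of GAGAGA, while the kin-20 window held a run of alternating C and A followed by a GA repeat. The nhr-19 and lin-42 windows held none of the motifs searched within the printed bases.

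A set of summits at small RNA genes looked different again, and the strongest 2 at snoRNA genes and at tRNA genes are printed with 75 bases to each side of the summit.
ppat-1, at a snoRNA gene (III:4689717-4689867): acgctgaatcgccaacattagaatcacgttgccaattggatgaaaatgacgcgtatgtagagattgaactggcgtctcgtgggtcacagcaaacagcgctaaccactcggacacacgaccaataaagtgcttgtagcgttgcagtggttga
pxn-1, at a snoRNA gene (V:8500502-8500652): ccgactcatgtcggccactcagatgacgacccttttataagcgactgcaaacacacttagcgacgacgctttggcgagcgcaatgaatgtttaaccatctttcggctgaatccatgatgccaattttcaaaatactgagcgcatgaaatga
sulp-3, at a tRNA gene (X:8404387-8404537): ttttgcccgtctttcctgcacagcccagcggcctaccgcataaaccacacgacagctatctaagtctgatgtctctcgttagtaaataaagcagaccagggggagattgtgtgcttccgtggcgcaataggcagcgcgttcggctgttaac
F52C9.5, at a tRNA gene (III:5305839-5305989): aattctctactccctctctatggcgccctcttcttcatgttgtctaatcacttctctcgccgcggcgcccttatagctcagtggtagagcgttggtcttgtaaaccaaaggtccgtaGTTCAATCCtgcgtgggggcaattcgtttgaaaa
Capitals in the last one mark GTTCNANNC, written here as the core of the B box, the internal promoter element through which tRNA genes recruit the RNA polymerase III machinery. The printed bases of the stronger tRNA summit, in sulp-3, and of both snoRNA summits hold no match to it.

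The strongest intronic peak lay in the second intron of nhr-19, which encodes a nuclear hormone receptor, with its summit at II:9601319. Its signal value, the peak caller's measure of enrichment whose scale is not stated, was 934 in the joint list, 405 in replicate 1 and 531 in replicate 2. It ranked 19 of all 3935 peaks, 19 in the list of replicate 1 and 18 in that of replicate 2. A further peak in the same intron reached 639, with 275 and 368 in the replicates, and 3 weaker ones in nhr-19 lay between 107 and 118. The scale differs between lists, so the joint value may be compared only with other joint values and each replicate only with itself.

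Peaks of similar strength fell in genes of several kinds. In ppfr-1, a regulatory subunit of protein phosphatase 4, summits in introns 5 and 4 had joint values of 765 and 718. The replicate values were 323 and 447 for the first, and 354 and 369 for the other. D2023.3 followed with 715, from 292 and 430 in the replicates. In lin-42, the worm relative of the circadian gene Period and a timer of larval molts, the first intron carried a peak of 678, with 258 and 417 in the replicates. In kin-20, a casein kinase 1 relative of the fly kinase Doubletime, the first intron carried one of 605, with 237 and 366. Both genes therefore had a peak among the 10 strongest intronic ones, and in both it lay in the first intron of the transcript used. Both summits also lay upstream of their nearest start, another start of the same gene (-2986 bp in lin-42, -1749 bp in kin-20). Each was inside a gene that the annotation classes as non-coding RNA.

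The first intron of nhr-27, at 100912 bp the longest intron with a peak, held a single member in its middle with a joint value of 630, from 274 and 352 in the replicates. That summit lay upstream of its nearest start, which belonged to another gene, cept-1 (-2283 bp). The nearest start was also that of another gene for the strongest nhr-19 peak (mrpl-53), D2023.3 (D2023.1) and mom-1 (cest-16). A host is thus only the gene around the summit. In gcn-1, a regulator of the translational control kinase GCN2, a peak in intron 11 reached 619, from 326 and 297. H18N23.2 had 581, from 270 and 307. The others among the 20 strongest ran from 433 to 553 and lay in dlk-1, a kinase of axon regeneration, Y43F8B.2, pdhk-2, a pyruvate dehydrogenase kinase, aak-2, mom-1, K10C3.4, ppat-1, aakg-1, unk-1 and pdk-1. All 20 ranked no lower than 208 in replicate 1 and 281 in replicate 2.

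Across all members the joint signal ran from 91.2 to 934 with a median of 137. In replicate 1 the matched peaks ran from 15.1 to 405 with a median of 61.8, and in replicate 2 from 18.6 to 531 with a median of 77.9. Of the 689, 670 had a summit within 100 bp in both replicate lists of 30000 peaks, and 483 (70.1%) had one among the 3935 strongest of each. Summits were displaced by a median of 11 bp in replicate 1 and 6 bp in replicate 2. Over the 670 matched peaks the replicate signals had a Spearman correlation of 0.67 and a Pearson correlation of 0.74 on the log2 scale, a description across peaks of the same 2 libraries. The joint list was made from these replicates, so this match was in part built into it.

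**Figure D1:**
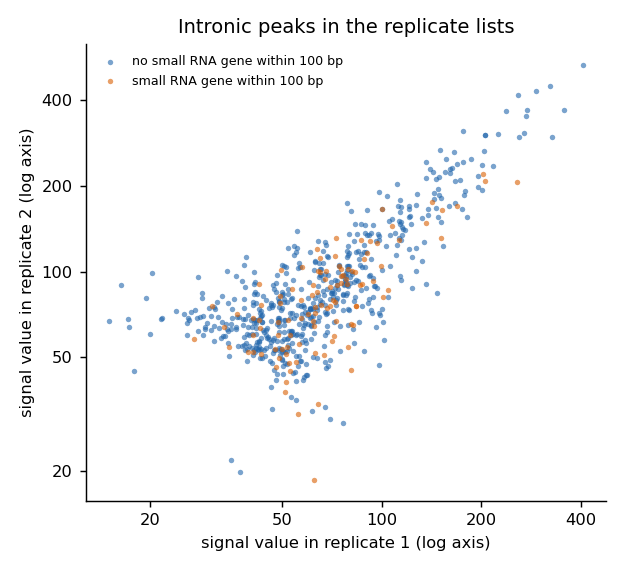
Signal value of each intronic peak in the list of replicate 1 (horizontal, log axis) and replicate 2 (vertical, log axis), one point per peak matched in both lists, coloured by whether a small RNA gene lies within 100 bp. The strongest intronic peak, in nhr-19, was the highest in both, at 405 and 531, and the weaker peaks scattered widely.

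The share of intronic peaks found in both replicates did not differ beyond error from that of other peaks. The share with a match among the strongest 3935 of each was 72.2% at promoters and 71.4% at distal intergenic sites, against 70.1% in introns (Fisher's exact test, two-sided, p adjusted over 8 comparisons = 0.404 and 0.637). They were, however, less often among the strongest. The 984 strongest peaks of the whole list held 138 of the intronic ones (20.03%). They held 548 of 1990 promoter peaks (27.5%, Fisher's exact test, adjusted p = 0.00075) and 281 of 1127 distal intergenic peaks (24.9%, adjusted p = 0.0427). The difference from distal intergenic peaks passed the threshold in 3 of 9 alternative settings and that from promoter peaks in 8. Peaks were counted as independent in these tests although all come from the same libraries and neighbours can share an intron.

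Per length of sequence, introns away from promoters were bound less densely than promoters. The 27.3 Mb open to the rule, 27.2% of the genome, held 25.3 peaks per Mb (95% exact Poisson interval 23.4 to 27.2). Promoter windows held 75.9 per Mb and distal intergenic sequence 44.8, while exons held 5.95. On the X chromosome the density in open intron sequence was 35.6 per Mb (30.3 to 41.5), the highest of the 6 chromosomes. It was 28.6 on III, 27.7 on II, 24.0 on IV, 19.01 on I and 18.3 on V, and the intervals of II, III and IV overlapped one another. The interval of X overlapped those of II and III. The share of peaks on X, 163 of 689 (23.7%), was close to that of promoter peaks at 22.8% (Fisher's exact test, adjusted p = 0.637). It was lower than the 28.0% of distal intergenic peaks without passing the threshold (exact test, adjusted p = 0.0960), although it passed in either replicate's own list (0.0325 and 0.0428).

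Long introns held most of the intronic peaks. The median length of an intron with a peak was 2917 bp, and lengths ran from 48 to 100912 bp. Introns shorter than 500 bp held 15.9 peaks per Mb of open sequence, those of 500 to 999 bp 12.3, and those of 1000 to 1999 bp 14.4. The density then rose to 41.2 per Mb at 2000 to 4999 bp, 71.1 at 5000 to 9999 bp and 61.2 at 10000 bp or more. The highest of these, with an interval of 60.6 to 82.8, reached the promoter density of 75.9 within its counting error.

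By position in the transcript, first introns had the highest density. They held 233 of the 687 members that could be placed in an intron of a coding transcript (33.9%) and 21.5% of the open sequence, at 39.9 peaks per Mb (35.0 to 45.4). Second introns held 26.0, the third 21.8, and introns 4 to 5, 6 to 10, and 11 or later held 22.1, 17.1 and 19.8. First introns with a peak were also long, with a median of 4847 bp against 2001 bp for later ones. Within a length class the first intron was denser at 1000 to 1999 bp (30.9 against 10.8 in later introns) and at 2000 to 4999 bp (57.2 against 34.4), and the intervals did not overlap. At 5000 to 9999 bp (77.1 against 66.4) and at 10000 bp or more (56.2 against 66.0) they did, and below 1000 bp first introns were no denser than later ones. The 2 members in no intron of a coding transcript, both on V, had signals of 182 and 103.

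**Figure D2:**
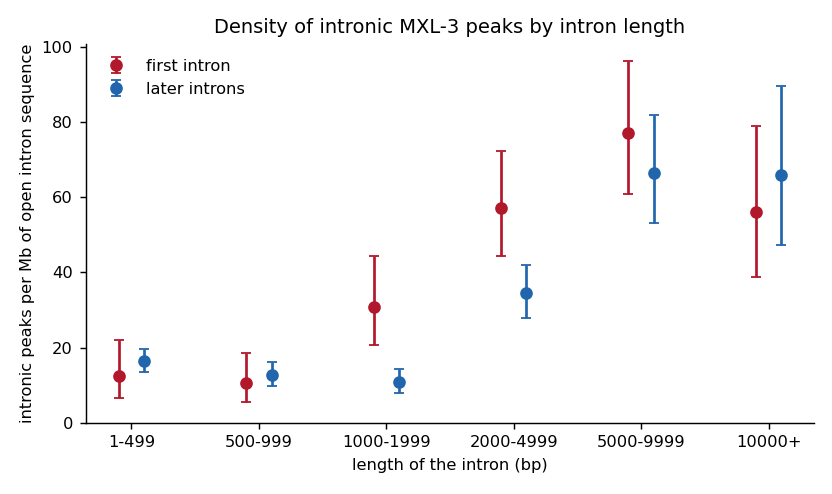
Intronic peaks per Mb of open intron sequence (vertical) by length of the intron in bp (horizontal), for first and later introns, with 95% exact Poisson intervals. Density was 10.6 to 16.4 per Mb below 1000 bp in both, and 34.4 to 77.1 per Mb from 2000 bp on.

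The peaks were spread through the body of their introns. With each intron cut into 4 equal parts from its 5′ end, the parts held 23.3%, 31.1%, 28.7% and 16.9% of the peaks. They held 25.7%, 26.1%, 25.2% and 23.0% of the open sequence. Coding introns held 584, introns in the 5′ UTR 100 and introns in the 3′ UTR 3. The median distance to the nearest transcript start was 1653 bp, 272 summits were more than 2000 bp from any start, and 51 more than 5000 bp. That start belonged to the host gene in 588 cases (85.3%). In 219 cases (31.8%) the summit lay upstream of it, so the intron number there depends on the transcript used. The window edge cut through a continuum: hlh-30 at IV:4020045 entered the set at 1001 bp upstream of a start with signal 169, and a summit in gid-2 at X:2432660, 996 bp upstream, was left out with signal 247. Next inside were ogdh-2 (210) and ptr-18 (130), and next outside Y4C6B.3 (109) and F12F6.1 (96.97).

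E-boxes marked the intronic summits. CACGTG stood within 100 bp of 129 summits (18.7%), against 23 of the same peaks (3.34%) in an equal window 500 bp away (exact McNemar test, adjusted over 6 motifs, p = 7.7e-20). Of all 103822 open intron windows of 201 bp, 2.63% held it. CACATG stood at 19.4% of summits, 7.26% of flanking windows and 4.93% of all windows (exact p = 9.0e-11). CAAGTG, the other variant, did not differ beyond error, at 11.03% and 9.43% (exact p = 0.367), with 5.87% of all windows. All motifs were read on both strands, and 290 summits (42.1%) had at least 1 of these 3 E-boxes. That count includes CAAGTG, and no such joint share is given for flanks or all windows.

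Other motifs were also frequent. GAGAGA, a GA repeat, stood at 42.96% of summits against 11.03% of flanks and 7.90% of all windows (exact p = 2.8e-41). GATAAG, the site type of the GATA factors of gut and skin, stood at 20.9% against 8.85% and 5.26% (exact p = 1.3e-09). TGTTTAC, the forkhead type, was at 4.50% and 3.19% (exact p = 0.326), with 2.13% of all windows. Summit windows had a median GC content of 45.3% against 35.3% in the flanks, and the part of GC content in these differences was not tested. At 156 summits (22.6%) none of the 6 motifs was found, and no such joint share is given for flanks.

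**Figure D3:**
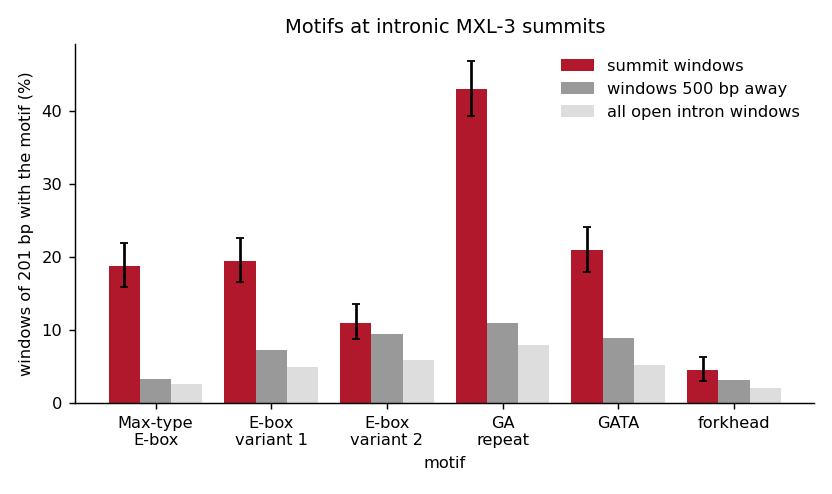
Share of windows of 201 bp with each motif (vertical, %) at the 689 intronic summits (with 95% exact intervals), 500 bp away from them, and in all open intron windows. The Max-type E-box is CACGTG, variant 1 is CACATG and variant 2 is CAAGTG; the GA repeat, at 42.96% of summits, has the highest bar.

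CACGTG followed the strength of the peak. In 4 groups of 172 or 173 intronic peaks, from strongest to weakest, it was present at 32.4% (25.5 to 39.9), 17.4%, 14.5% and 10.5% (6.32 to 16.03). GAGAGA went from 53.8% to 37.8% over the same groups, while GATAAG stayed between 19.1% and 22.7%. Intronic summits had CACGTG more often than promoter summits, of which 289 (14.5%) had it (Fisher's exact test, adjusted p = 0.0418). With a window of 50 bp to each side the difference shrank to 1.74 percentage points and the call was lost (exact test, adjusted p = 0.456), as it was with the peaks of replicate 2 alone (3.55 points, adjusted p = 0.0668). Against the 15.4% of distal intergenic peaks the difference did not pass the threshold (exact test, adjusted p = 0.112).

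In short introns many of the peaks stood at small RNA genes. A tRNA, snoRNA, snRNA or miRNA gene lay within 100 bp of 109 intronic summits (15.8%), of which 78 were at tRNA genes, 26 at snoRNA genes, 4 at snRNA genes and 1 at a miRNA gene. The share was 4.02% of promoter peaks (Fisher's exact test, adjusted p = 8.4e-22) and 8.43% of distal intergenic peaks (p = 2.5e-06), a comparison chosen after the values had been seen. Sequence within 100 bp of such genes made up 0.439% of the open introns, 0.415% of the promoter windows and 0.578% of distal intergenic sequence. In introns under 500 bp 63 of 126 peaks were near a small RNA gene, and at 500 to 999 bp 28 of 79. From 2000 bp on it was 10 in all: 4 of 168, 5 of 165 and 1 of 74.

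**Figure D4:**
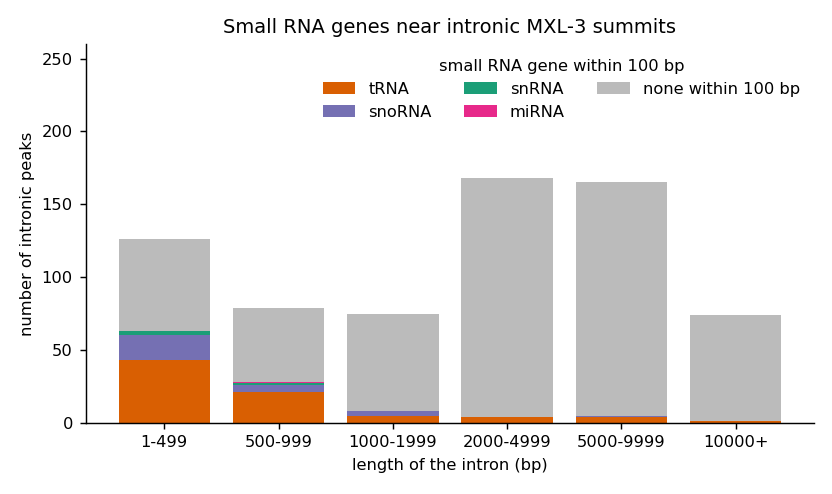
Number of intronic peaks (vertical) by length of the intron in bp (horizontal), coloured by the kind of small RNA gene within 100 bp of the summit, or none. Small RNA genes accounted for 63 of the 126 peaks in introns under 500 bp and for 1 of 74 at 10000 bp or more.

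These 109 peaks differed from the other 580 in sequence, given here as a description. CACGTG stood at 6 of them (5.50%) against 21.2% of the others, GAGAGA at 27.5% against 45.9%, and GATAAG at 6.42% against 23.6%. GTTCNANNC, the B-box core searched after these peaks had been seen, stood at 74.3% against 5.52%, and in 5.91% of all open intron windows. At tRNA genes it was 88.5% and at snoRNA genes 46.2%. The B box is part of tRNA genes, so these shares follow in part from grouping the peaks by nearby tRNA genes. The share at intronic tRNA genes without a peak is not given here. Their introns were short, with a median of 361 bp against 3840 bp, and their median signal was 143 against 135. Counted over all 689 members, 84 summits lay inside genes that the annotation classes only as non-coding RNA. With antisense RNA, lincRNA and piRNA genes and pseudogenes included, it was 93 of 689. The same count was 152 of 1127 distal intergenic and 186 of 1990 promoter peaks, so it is not particular to introns.

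Of the 239 tRNA genes in open introns, 81 had a member within 100 bp (33.9%), as did 26 of 120 snoRNA genes, 4 of 46 snRNA genes and 1 of 73 miRNA genes. Relative to the tRNA gene, 48 of the 78 summits lay inside it, 28 upstream and 2 beyond it, with a median of 9.5 bp after its 5′ end. The tRNA gene ran on the strand of its host in 37 of 78 cases. The highest tRNA peak, in sulp-3, had a signal of 243, and the tRNA peaks had a median of 137. The snoRNA peaks had a median of 186 and reached 469 in ppat-1 and 422 in pxn-1, which encodes a peroxidasin of the extracellular matrix. The ppat-1 peak was 256 in replicate 1 and 206 in replicate 2, and the pxn-1 peak 202 and 220. The X chromosome carried 30 of the 78 tRNA peaks and none of the 26 snoRNA peaks. How many of the intronic tRNA and snoRNA genes lie on X is not given here. These counts therefore cannot be read as a preference of the peaks for or against X.

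The 687 members in introns of coding transcripts belonged to 499 host genes, 2.88% of the 17306 protein-coding genes that had any open intron sequence. Of these hosts, 393 had 1 peak, 60 had 2, 25 had 3, 11 had 4, 5 had 5 and 5 had 6, and 221 members shared an intron with another. The hosts were genes with much intron sequence, with a median of 3.96 kb open against 0.685 kb over all genes. A host had an MXL-3 summit in its own promoter window in 163 cases (32.7%), against 10.6% of the other genes. The same held in each class of open sequence, from genes with under 0.5 kb to those with over 10 kb: the hosts had 23.5% to 43.4% and the others 7.09% to 12.5%.

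Hosts with 6 peaks were ppfr-1, daf-5, pkg-2, ZK470.2 and daf-16, and those with 5 were nhr-19, Y67D8A.2, fkh-7, lin-14 and cct-5. In daf-5, the Sno/Ski partner of Smad proteins in the dauer pathway, all 6 lay in the first intron of 14446 bp. Its strongest reached 386, with 195 and 197 in the replicates, and the others ran from 113 to 246. In pkg-2, a cGMP-dependent protein kinase, the peaks ran from 109 to 345, with the strongest at 148 and 194 in the replicates. In daf-16, the FOXO factor under insulin signalling, 4 lay in an intron of 12401 bp and 2 in one of 7676 bp, from 104 to 292. The strongest daf-16 peak had 121 in replicate 1 and 170 in replicate 2, and none of its 6 had CACGTG within 100 bp.

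**Figure D5:**
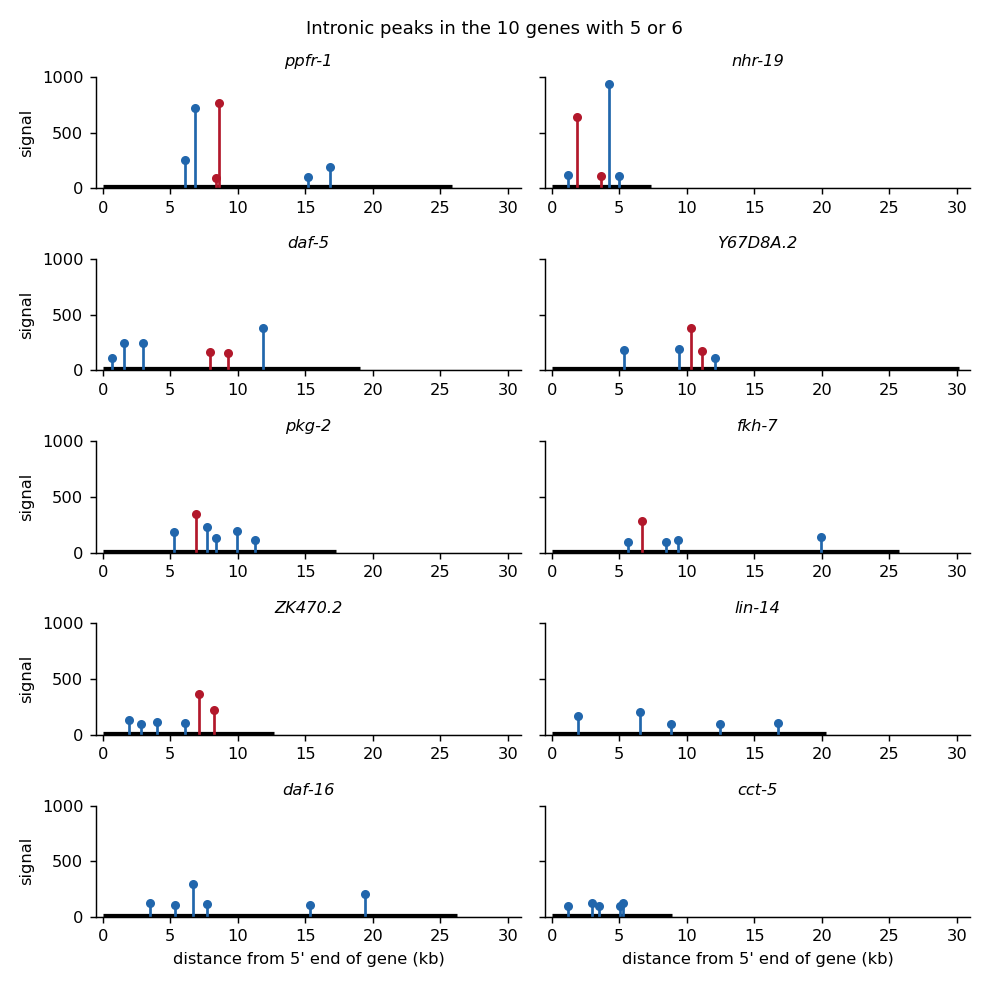
Position of each intronic peak along the 10 genes with 5 or 6 of them (horizontal, kb from the 5′ end of the gene; black bar, the gene) and its joint signal value (vertical), red where CACGTG lies within 100 bp of the summit and blue where it does not. The tallest peak of nhr-19, 934, has no CACGTG, and neither does any peak of daf-16, lin-14 or cct-5.

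Genes of insulin, TOR and AMPK signalling, the nutrient-sensing pathways, hosted intronic peaks in 7 of 23 genes with open sequence (30.4%, interval 13.2 to 52.9), beside 2.88% over all genes. Per Mb of open sequence the list had 106 peaks (59.1 to 174) against 25.3 over all genes. Over all genes the share of hosts rose with open sequence, from 0.298% under 0.5 kb to 27.4% over 10 kb. Density was 13.7 and 36.6 per Mb in these 2 classes. This list had a median of 2.65 kb open, against 0.685 kb over all genes, so the values over all genes are not a like comparison. Of its 15 peaks, 6 lay in daf-16, and the interval counts peaks of 1 gene as independent. The strongest were in the first intron of aak-2, the catalytic alpha subunit of AMPK, at 503 (206 and 300 in the replicates), and in aakg-1, a gamma subunit, at 444 (217 and 235) with further peaks of 363 and 112. In pdk-1, which phosphorylates AKT kinases, the peak was 433 (186 and 247). The others were daf-16, ist-1 (159), the insulin receptor gene daf-2 (151 and 142) and let-363, the TOR kinase (114). Of the 2 daf-2 peaks, the weaker had no match in the replicate 1 list.

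Among regulators, developmental transcription factors other than homeobox genes had 17 hosts of 93 genes (18.3%, 11.02 to 27.6), at 137 peaks per Mb. Of their 34 peaks, 6 lay in daf-16, 5 in fkh-7 and 4 in skn-1. Their median of open sequence was 1.255 kb, against 0.685 kb over all genes. All 14 lists were chosen with earlier results of these data known, so their intervals are a description and not independent support. The lists overlap, so they are not separate results: daf-16 is also counted under insulin signalling, sma-9 under TGF-beta signalling and hlh-30 under autophagy. The developmental factors included lag-1, the DNA-binding effector of Notch, with 426 (165 and 263 in the replicates), and egl-27 with 388 (163 and 231). Nuclear hormone receptors, ligand-regulated factors that are numerous in worms, had 18 hosts of 269 (6.69%, 4.01 to 10.4) at 65.4 per Mb, led by nhr-19, nhr-27 and nhr-31 (348, from 167 and 173). Homeobox genes had none of 91, which allows a share of up to 3.97%, in 0.228 Mb of open sequence. Besides their strongest peaks, lin-42 held 2 more (171 and 135) and kin-20 held 1 (152).

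Among other signalling genes, those of TGF-beta signalling had 3 hosts of 21 (14.3%, 3.05 to 36.3) at 119 per Mb (51.2 to 234): daf-5, the Smad gene daf-14 (258, from 113 and 150) and the zinc finger cofactor sma-9 (194, from 79.9 and 105). Of the 8 peaks of TGF-beta genes, 6 lay in daf-5, and these genes had a median of 2.18 kb open, against 0.685 kb over all genes. Wnt genes had 2 of 27 (7.41%, 0.910 to 24.3) at 23.5 per Mb (2.84 to 84.8), near the 25.3 of all genes, with mom-1, the Porcupine relative that acylates Wnt ligands, at 484 (176 and 312) and the kinase gene lit-1 at 98.3. Hedgehog-related and patched-related genes had 8 of 81 (9.88%, 4.36 to 18.5) at 72.7 per Mb (36.3 to 130.1), led by wrt-9 (328), ptr-24 (186) and ptr-25 (150). The 3 ptr-24 peaks lay 2209 to 7021 bp from mxl-3 itself, which the transgene also carries, and the part of transgene copies in them was not tested.

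Surface, channel, muscle and matrix genes had 3 to 8 intronic peaks per list, and the intervals of their densities all overlapped. The median of open sequence was 2.41 kb for ion channels, 1.96 kb for muscle genes and 3.15 kb for matrix genes, against 0.685 kb over all genes. The share of genes that were hosts was 7.50% (1.57 to 20.4) for adhesion genes and 4.47% (1.95 to 8.62) for ion channels. It was 6.25% (1.31 to 17.2) for muscle genes and 16.7% (4.74 to 37.4) for matrix genes, beside 2.88% over all genes. Cell adhesion and axon guidance genes, with a median of 5.27 kb open, had 3 hosts of 40 and 12.3 peaks per Mb (3.34 to 31.4), an interval that includes the 25.3 of all genes: rig-6 at 132, the cadherin gene hmr-1 at 95.2 and sax-7 at 95.1. Ion channels had 8 of 179 at 10.5 per Mb (4.54 to 20.7), an interval wholly below that value, although their share of hosts was not below 2.88%. They were led by the potassium channel genes twk-5 (287), twk-4 (193) and twk-48 (142). Muscle genes had 3 of 48, unc-22 (171), vab-10 (128) and unc-70 (113), at 15.7 per Mb (3.23 to 45.8). Basement membrane and matrix genes had 4 of 24, with pxn-1, whose peak is at a snoRNA gene, unc-52 (209), him-4 (186) and adt-2 (106), at 54.0 per Mb (19.8 to 118).

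The pathways that MXL-3 is known for are set beside the 2.88% of genes and 25.3 peaks per Mb over all genes. Autophagy and lysosome genes had 3 hosts of 47 (6.38%, 1.34 to 17.5) and 66.3 peaks per Mb (21.5 to 155), and both intervals include the value of all genes. The hosts were epg-9, an autophagy initiation factor, at 255 (107 and 153 in the replicates), hlh-30 and the proton pump subunit gene vha-7 at 151 (51.5 and 104). The 3 peaks of hlh-30 all lay in an intron of 8295 bp and ran from 93.8 to 169. The strongest hlh-30 peak had 77.6 in replicate 1 and 94.0 in replicate 2. It lay 1001 bp upstream of an hlh-30 start, only 1 bp outside the promoter window. Of the 3 hlh-30 peaks, 1 had CACGTG. Fat metabolism genes and lipases had 5 of 74 (6.76%, 2.23 to 15.1) at 38.3 per Mb (12.4 to 89.3), with intervals that also include the value of all genes, and the acyl-CoA synthetase genes acs-13 (237), acs-5 (133) and acs-20 (131) in front. Cuticle collagens, with a median of only 0.1065 kb open, had 4 of 128 (3.13%, 0.858 to 7.81) at 88.4 per Mb (24.1 to 226), led by col-99 (190), col-109 (147) and col-173 (135).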

How the data were processed

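MXL-3 was mapped by ChIP-seq in 2 replicates of 1 group. Peak lists with summits on ce11 and a signal value per peak, on a scale not stated, were deposited by the authors for each replicate, for both replicates together (30000 peaks each), and as the 3935 peaks that passed an irreproducibility threshold (IDR). Per the listings deposited with each replicate, the lists were made against a control; no aligner or peak caller is named there or in the labels. The joint list of 30000 is labelled as peaks and background. Signals were not rescaled or compared between lists. Classes were assigned to each base in the order promoter, exon, intron, intergenic from Ensembl release 115. Intron number and length come, for each summit, from the longest spliced protein-coding transcript of the host that has the summit in an intron. The transcript used can thus differ between peaks of the same gene. Where genes overlap, the shorter intron was used. Shares have 95% exact binomial intervals and densities exact Poisson intervals, which cover counting error only; depth is unknown. Fisher's and McNemar's exact tests were two-sided with Benjamini-Hochberg adjustment and a threshold of 0.05. Genes named are the hosts of the 20 strongest peaks, the hosts with the most peaks and, in each of 14 gene lists, the 3 hosts with the strongest peak, besides those nearest the window edge; the other hosts with 5 peaks, further members of the lists and the weaker peaks of named genes were added after their values were seen. Members and lists were chosen with earlier results of these data known. The tests were checked on simulated data. Tests ran in scipy 1.17.1 under Python 3.11.15, with pandas 2.3.3 for tables, numpy 2.4.6 for arrays and matplotlib 3.10.9 for plots.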

Additional observations from a re-analysis of the deposited data

How the results depend on the processing

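CACGTG at intronic summits exceeded the flanks under all 12 alternatives (10.7 to 22.6 percentage points, adjusted p at most 3.1e-15). Using 1 replicate's strongest peaks, the intronic share was 17.5% to 18.1% and the first intron share 33.2% to 33.9%. CACGTG against promoter peaks was 3.52 to 3.55 points when either replicate was left out, lost without replicate 1, and lost with a 50 bp motif window (1.74); against distal intergenic peaks it passed with the narrower promoter window of 500 bp (4.09 points). The share among the strongest peaks of the list against distal intergenic peaks was -5.48 to -3.93 points with either replicate left out and lost without replicate 1; it was also lost among the stronger of 2 equal list parts (-4.16), with a 2000 bp promoter window (-5.37), with exons of every transcript (-4.68), and, in alternatives chosen after seeing the data, without peaks at small RNA genes (-3.41) or within 20 kb of mxl-3 (-4.36); against promoter peaks it was lost in the stronger part (-3.76). The X share against promoter peaks was -0.48 to 0.94 with either replicate left out, reversed without replicate 2, and reversed in the stronger part (-1.41), and passed with the 2000 bp window (4.85); against distal intergenic peaks it passed without replicate 1 (-5.66) and without replicate 2 (-4.68). The replicate match against distal intergenic peaks reversed at 50 bp (1.13). The intronic share was 20.6% and 13.4% with the narrower and wider promoter windows, 14.5% with exons of every transcript and 15.9% without peaks at small RNA genes. The last 2 settings moved the median intron length to 3420 and 3840 bp. Taking the lowest intron number gave a first intron share of 43.5%, and the stronger part had 272 host genes. The causes were not tested. No paired analysis was possible because there is 1 group.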

Other observations

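Intronic summits were also counted at the lower ranks of the joint list of 30000. That list is labelled as peaks and background, so entries at its lower ranks need not be bound sites. Of the genome, 27.2% was open intron sequence, 26.1% promoter windows and 21.6% exons. The intronic share was 18.3% at ranks 3936 to 10000, 19.4% at ranks 10001 to 20000 and 20.02% at ranks 20001 to 30000. It was 17.5% (16.3 to 18.7) in the first 3935, and the interval at the lowest ranks (19.2 to 20.8) lay above that one. Over the same 4 ranges the promoter share was 50.6%, 35.98%, 28.0% and 26.2%, and the exonic share 3.28%, 23.7%, 35.1% and 36.1%. CACGTG stood at 18.7% of the intronic summits in the first 3935, then at 10.1%, 7.16% and 5.34%, beside 2.63% of all open intron windows.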
